A study of Mus musculus with 9 samples.

Results

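Lrtm1, Mdga1 and Mical2 are 3 genes of 14300 listed for all libraries, chosen by their normalised counts in orchiectomised mice given dihydrotestosterone (ORX+DHT), which lay below those of control mice. That difference is therefore given as a description only. The tissue was tibialis anterior, a fast muscle of the lower leg, from C57BL/6J males, with 3 libraries in each of 3 groups. Control mice kept their testes, and their columns are named sham in the deposited tables. ORX mice had the testes removed, and ORX+DHT mice had them removed and received dihydrotestosterone, a potent androgen, with sampling 4 weeks after treatment. Age, dose and the cells of the muscle were not given in the labels, and every library was made from whole muscle, so that all cell types of the tissue contributed.

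Androgens act on muscle through the androgen receptor, a transcription factor that can raise or lower the transcript level of its targets, and testis removal takes away most circulating ligand. The 3 genes encode proteins of different kinds. Lrtm1 encodes a membrane protein with leucine-rich repeats. Mdga1 encodes a cell-surface protein held by a glycosylphosphatidylinositol anchor that binds neuroligins and limits their pairing with neurexins. Mical2 encodes a flavin monooxygenase that oxidises methionines of actin, which takes filaments apart and alters the supply of actin to the coactivators of serum response factor (SRF).

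The 250 bases before a RefSeq start of each gene are shown because the 3 transcripts were low in the same libraries. Lrtm1 (ENSMUSG00000045776) lies on the plus strand at chr14:29018208-29033645 (GRCm38), and its upstream bases at chr14:29017958-29018207. Mdga1 (ENSMUSG00000043557) lies on the minus strand at chr17:29827949-29970087. Its RefSeq start is inside this GENCODE span, with upstream bases at chr17:29887883-29888132. Mical2 (ENSMUSG00000038244) lies on the plus strand at chr7:112225856-112413106, and its upstream bases at chr7:112225586-112225835. The RefSeq span of Mical2 begins at 112225825, just inside that window, so distances to its start are counted from the end of the window. The sequences are RefSeq's (GRCm38.p6) and are printed 5′ to 3′ on the strand of the gene. Capitals mark matches to any of 6 motifs searched on both strands.
Lrtm1: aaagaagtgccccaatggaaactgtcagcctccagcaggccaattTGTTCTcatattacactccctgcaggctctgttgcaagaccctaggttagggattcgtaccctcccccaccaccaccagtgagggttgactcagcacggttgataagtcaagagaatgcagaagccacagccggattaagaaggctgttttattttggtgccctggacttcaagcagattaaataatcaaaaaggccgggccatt
Mdga1: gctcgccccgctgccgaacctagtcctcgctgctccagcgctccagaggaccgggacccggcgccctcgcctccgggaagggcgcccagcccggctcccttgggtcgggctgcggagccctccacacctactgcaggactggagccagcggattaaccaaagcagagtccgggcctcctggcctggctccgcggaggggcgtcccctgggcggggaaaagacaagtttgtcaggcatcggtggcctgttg
Mical2: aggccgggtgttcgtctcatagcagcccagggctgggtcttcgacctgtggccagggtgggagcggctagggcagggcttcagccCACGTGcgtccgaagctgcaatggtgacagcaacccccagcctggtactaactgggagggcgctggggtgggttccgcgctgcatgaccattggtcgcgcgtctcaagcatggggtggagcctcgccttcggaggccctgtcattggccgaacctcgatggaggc

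The androgen receptor hexamer TGTTCT was found once, in Lrtm1, 205 bases before the start, and 16.1% of 32817 promoter windows of this length held it on either strand. The full palindrome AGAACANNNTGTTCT, which contains that hexamer, was in none of the 3 windows and in 0.00914% of all. The E-box CANNTG, a site of basic helix-loop-helix factors, was found once, in Mical2, 165 bases before the start, against 66.2% of all windows. The CArG box of SRF (1.47% of all windows), the MEF2 site (2.92%) and TATAAA (12.4%) had no match in the 3 windows. Mdga1 had no match to any of the 6. The windows also differed in base composition. Lrtm1 was 49.2% G and C with 4 CpG, Mdga1 70.4% with 21 and Mical2 66% with 17, where the median window of listed genes held 59.2% and 14. These letters describe the windows and do not say whether a factor binds there or elsewhere.

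The surroundings of the genes bear on how their reads were assigned. Lrtm1 lies inside an intron of Cacna2d3 (chr14:28982374-29043500), a gene of the opposite strand for a calcium channel subunit, with 0 exons of the host inside it. Cacna2d3 itself had between 0 and 2 reads in each of the 9 libraries, where Lrtm1 had between 64 and 371. The antisense gene Gm16758 overlaps the span of Mdga1 and was not used here. Mical2 has 13 transcripts in GENCODE release M21, of which 5 start at or beyond the start of the neighbouring RefSeq gene Micalcl (chr7:112368308-112413104). Micalcl had no row of its own in the tables, so counts of Mical2 may include reads of that region. Whether the counting used the strand is not given in the sources used here.

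Each library held between 1340209 and 1682235 reads on listed protein-coding genes. Control replicate 1 stood apart. Across genes, which are not independent replicates, its log2 values had Pearson's r of 0.928 and 0.929 with the other control libraries, which had 0.968 with each other, while ORX pairs had 0.966 to 0.973 and ORX+DHT pairs 0.97 to 0.971. The tests of the 3 genes and the counts of list genes called against control are therefore also given without it. Nothing in the labels says that replicates share an animal, a litter or a day. The muscle fibre markers Ckm, Acta1, Myh4, Tnnt3 and Actn3 were high in all 9 libraries, with a summed level of at least 181853 normalised counts.

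All 3 transcripts were lowest in every ORX+DHT library. On the joint scale, where all 9 libraries share 1 set of median-of-ratios factors, each ORX+DHT value lay below each of the 6 other values for each gene. This was so for 248 of 8631 genes, 2.87%. Ordered by the log2 gap between the highest ORX+DHT library and the lowest other library, Lrtm1 was at place 2, Mical2 at place 5 and Mdga1 at place 9. As the genes were picked for this difference, the order is a description. In whole muscle, fewer cells of a type and less RNA per cell cannot be told apart.

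**Figure D1:**
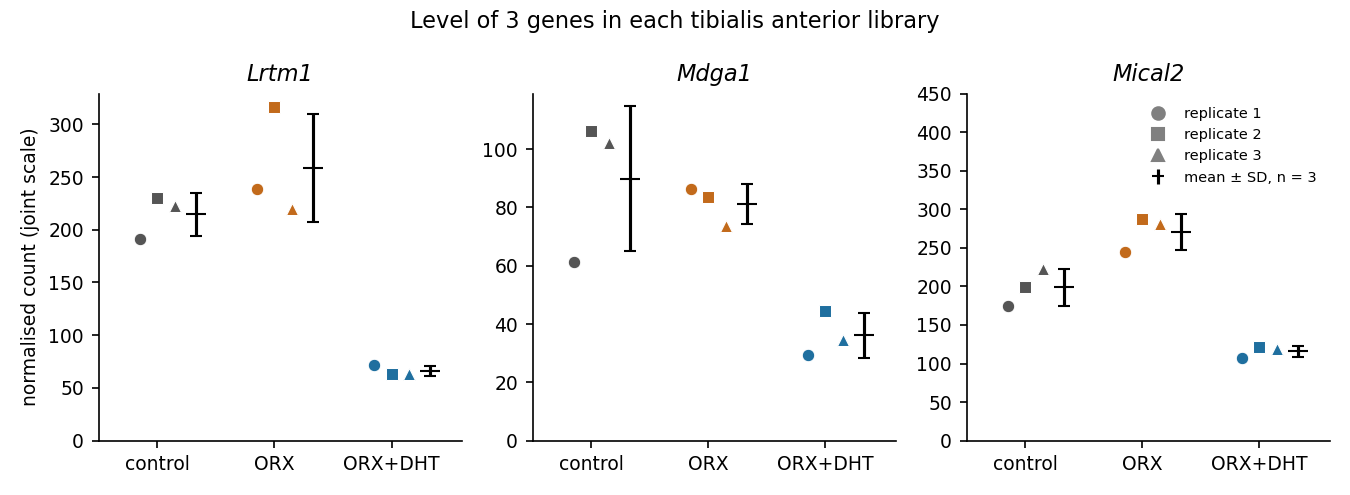
Normalised counts (vertical axes, joint scale) of Lrtm1, Mdga1 and Mical2 in each library, grouped on the horizontal axes as control, ORX and ORX+DHT. Points are libraries, with the replicate number as symbol, and bars are the mean ± SD of 3 libraries. The ORX+DHT points lie below all others in each panel, at 62.8 to 71.9 for Lrtm1, 29.4 to 44.5 for Mdga1 and 107 to 121 for Mical2.

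Lrtm1 had 191, 229.98 and 222 normalised counts in control libraries 1, 2 and 3. It stood at 239, 316 and 220.03 in ORX replicates 1, 2 and 3, and at 71.9, 62.8 and 63.2 in ORX+DHT replicates 1, 2 and 3. The ORX+DHT libraries were tightly grouped, ORX replicate 2 was the highest of all, and control and ORX overlapped. The lowest ORX library was 3.06 times the highest ORX+DHT library. The ORX+DHT values rest on 71, 65 and 64 reads, and the exact Poisson 95% intervals of these counts, which cover counting error only, run from 49.3 to 89.6 reads. Group means were 214 ± 20.7 for control, 258 ± 51.2 for ORX and 66.01 ± 5.15 for ORX+DHT muscle (SD, n = 3). ORX+DHT muscle thus held 25.6% of the ORX level and 30.8% of the control level.

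Mdga1 had 61.2, 106 and 102 normalised counts in control libraries 1, 2 and 3, at 86.4, 83.6 and 73.6 in ORX replicates 1, 2 and 3, and at 29.4, 44.5 and 34.6 in ORX+DHT replicates 1, 2 and 3. Control 1 was the low control and lay below all ORX libraries, while controls 2 and 3 lay above them. The 3 ORX+DHT values rest on 29, 46 and 35 reads, the fewest among the 3 genes. Group means were 89.9 ± 24.9 for control, 81.2 ± 6.71 for ORX and 36.1 ± 7.66 for ORX+DHT muscle (SD, n = 3). The ORX+DHT level was 44.5% of ORX and 40.2% of control.

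Mical2 had 175, 199 and 222 normalised counts in control libraries 1, 2 and 3, at 244, 287 and 281 in ORX replicates 1, 2 and 3, and at 107, 121 and 119 in ORX+DHT replicates 1, 2 and 3. No group overlapped another: ORX was highest, control between and ORX+DHT lowest. Group means were 199 ± 23.8, 271 ± 23.2 and 116 ± 7.19 (SD, n = 3). The ORX+DHT level was 42.7% of ORX and 58.2% of control.

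To ask what the androgen did in mice without testes, ORX+DHT was compared with ORX muscle. All 3 genes fell. Their log2 differences, on the log2(value + 1) scale, were -1.94 for Lrtm1 (SE 0.14, limma's adjusted p 5.49e-08), -1.22 for Mical2 (SE 0.11, limma's adjusted p 1.02e-06) and -1.16 for Mdga1 (SE 0.17, limma's adjusted p 0.000321). The 95% intervals ran from -2.22 to -1.65, from -1.45 to -0.995 and from -1.52 to -0.80. Of 8770 genes tested, 1.7% were called lower at an adjusted p under 0.05, and 4.08% were called in either direction. ORX+DHT libraries lay below all ORX libraries for 9.13% of these genes. Among falls ordered by size, Lrtm1 was at place 13, Mical2 at place 44 and Mdga1 at place 48. This contrast shares its ORX+DHT libraries with the contrast that chose the genes, so it is not independent of the choice. The number called in either direction was 358, and 223 without ORX+DHT replicate 1. The calls held in each of the 17 alternative fits per gene.

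**Figure D2:**
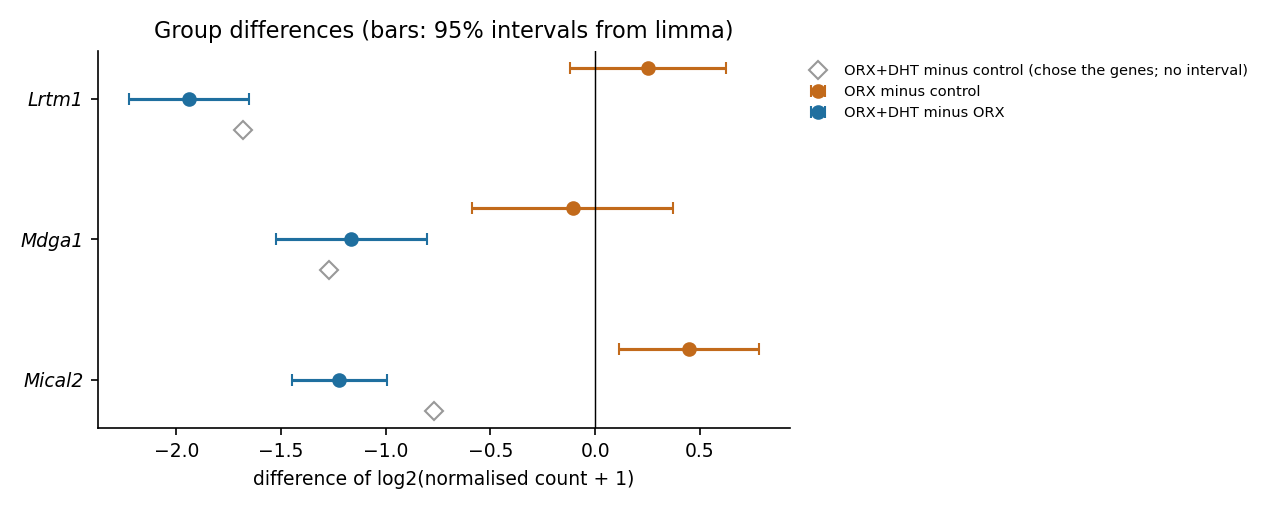
Differences of log2(normalised count + 1) between groups (horizontal axis) for Lrtm1, Mdga1 and Mical2 (vertical axis). Filled points with bars are limma fold changes with 95% intervals, and open diamonds are the differences that chose the genes, shown with no interval. Intervals of ORX+DHT minus ORX lie below 0 for all 3 genes, and those of ORX minus control hold 0 for Lrtm1 and Mdga1.

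Testis removal alone did not lower these transcripts by a called amount. In ORX against control, 0 of the 3 genes were called by limma, where 5 of 8631 genes tested, 0.0579%, were called in all. Without control 1 that number was 51. At an unadjusted limma p under 0.05 there was 1 of the 3, Mical2, and 622 of all 8631 genes tested. Mical2 had a log2 difference of 0.45 (95% interval 0.11 to 0.78, limma's adjusted p 0.653), and its ORX libraries lay above all controls, as for 6.28% of genes. Lrtm1 had 0.25 (-0.12 to 0.63, limma's adjusted p 0.765), and 0.098 without ORX replicate 2. Mdga1 had -0.11 (-0.59 to 0.37, limma's adjusted p 0.927), and its sign turned without control 2 or control 3, to 0.034 and 0.0035. These intervals leave room for changes of some size, so equal levels are not shown. Without control 1 the log2 differences were 0.36, 0.17 and -0.36 for Mical2, Lrtm1 and Mdga1, with limma's adjusted p of 0.233, 0.721 and 0.372. edgeR and DESeq2 also called 0 of the 3.

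In the contrast that chose them, ORX+DHT against control, the log2 differences were -1.68 for Lrtm1, -1.27 for Mdga1 and -0.77 for Mical2. They were -1.76, -1.52 and -0.86 without control 1. Libraries of ORX+DHT lay below all controls for 7.12% of 8595 genes tested. Nothing further is read from this contrast. It shares its libraries with both others, and the other differences of a gene add up to it, apart from the scaling of the tables.

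**Figure D3:**
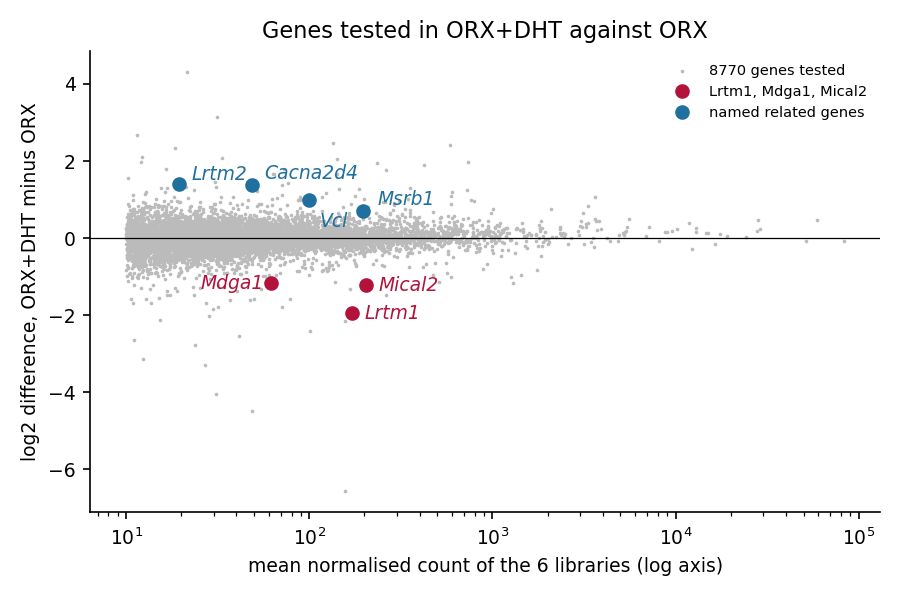
Log2 difference between ORX+DHT and ORX muscle (vertical axis) against mean normalised count of these 6 libraries (horizontal log axis) for 8770 tested genes, in grey. Lrtm1, Mdga1 and Mical2 (red) lie at -1.94, -1.16 and -1.22, and the related genes Lrtm2, Cacna2d4, Vcl and Msrb1 (blue) lie above 0.

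The relatives of Lrtm1 were read next. Lrtm2, the other gene of that name, rose in ORX+DHT against ORX, with a log2 difference of 1.40 (SE 0.32, limma's adjusted p 0.0136). Lrtm2 had 33.7, 60.8 and 24.8 normalised counts in control libraries 1, 2 and 3, at 15.7, 7.68 and 6.62 in ORX replicates 1, 2 and 3, and at 20.3, 29.003 and 30.6 in ORX+DHT replicates 1, 2 and 3. The ORX libraries were below all others, while ORX+DHT and control overlapped. Its ORX values rest on 8 to 16 reads. The call was lost without ORX replicate 2 (limma's adjusted p 0.065), ORX+DHT replicate 2 (0.0714) or ORX+DHT replicate 3 (0.0658), and with all 9 libraries in 1 fit (0.0734). When ORX was set against control, Lrtm2 differed by -1.88 on the log2 scale (SE 0.38, limma's adjusted p 0.175) and was not called. It was called lower without control 1 (-1.95, limma's adjusted p 0.0439), with all 9 libraries in 1 fit (-1.88, limma's adjusted p 0.0383) and by DESeq2 (-2.002, DESeq2's adjusted p 0.00644). The adjusted p ran up to 0.843 over the other alternatives, in the fit without ORX replicate 3. Of 37 genes for leucine-rich repeat membrane proteins, Lrtm1 left out, 9 were tested in ORX+DHT against ORX. Of these 2 rose, Lrtm2 and Lrig1, and 0 fell, where 2.38% of all genes tested were called higher, with a median log2 difference of 0.08 against 0.01 over all genes tested. Lrig1, which restrains growth factor receptors, rose by a log2 difference of 0.42 (SE 0.11, limma's adjusted p 0.0369), a call lost in 8 of 17 alternatives (highest limma's adjusted p 0.278), among them each of the fits without ORX+DHT replicate 1, 2 or 3 and without ORX replicate 1 or 3.

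As Lrtm1 lies in a calcium channel gene, the 12 voltage-gated channel subunit genes were also read. Of 8 tested in ORX+DHT against ORX, 1 rose and 0 fell, with a median log2 difference of -0.12. Of all genes tested, 2.38% were called higher and 1.7% lower. The gene that rose was Cacna2d4, for the accessory subunit alpha2delta-4, and not the host Cacna2d3. Cacna2d4 and Lrtm2, which rose as well, are both on chromosome 6. Whether these genes overlap or share reads was not examined, so their rises are not shown to be independent. Cacna2d4 stood at 48.7, 63.02 and 40.7 in controls 1, 2 and 3, at 24.5, 23.9 and 27.3 in ORX replicates 1, 2 and 3, and at 66.9, 64.8 and 68.2 in ORX+DHT replicates 1, 2 and 3. No group overlapped another, and here ORX+DHT was the highest. The share of all genes with groups parted in this order is not given here. The margin over control 2 was within counting error, as that value rests on 57 reads (exact Poisson 95% interval 47.7 to 81.7 normalised counts). In ORX+DHT against control, Cacna2d4 was not called, with a log2 difference of 0.41 (limma's adjusted p 0.736). In ORX+DHT against ORX its log2 difference was 1.37 (SE 0.17, limma's adjusted p 3.50e-05).

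Few genes linked to Mdga1 were high enough to test. Mdga2, its paralogue, had 0 or 1 read in each library. Of 20 genes for MDGA partners and immunoglobulin adhesion proteins, 13 were listed and 2 were tested in ORX+DHT against ORX. Of these 0 were called, against 4.08% of all genes tested, with a median log2 difference of -0.68. The neuroligin gene Nlgn2 had a log2 difference of -0.57 (limma's adjusted p 0.557), and Ncam1, for a neural cell adhesion protein, -0.79 (limma's adjusted p 0.223). A change of the size seen for Mdga1 could not be measured in the genes that missed the minimum.

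Around Mical2, 0 genes of its enzyme family or of the reductases that oppose it were called lower. Mical3 stood at 53.7, 111 and 114 in controls 1, 2 and 3, at 134, 77.6 and 62.9 in ORX replicates 1, 2 and 3, and at 132, 125 and 98.8 in ORX+DHT replicates 1, 2 and 3, with all groups overlapping. Its log2 difference in ORX+DHT against ORX was 0.43 (SE 0.20, limma's adjusted p 0.35), and the value depended on single ORX libraries. It was 0.74 and called higher without ORX replicate 1 (limma's adjusted p 0.0126), and 0.20 without ORX replicate 3 (limma's adjusted p 0.727). Mical1 had between 1 and 7 reads per library and was too low to test. Methionine sulfoxide reductases of class B undo the oxidation of actin by MICAL enzymes. Among them Msrb1 rose, with a log2 difference of 0.70 (SE 0.11, limma's adjusted p 0.00046), from 128, 150 and 148 in ORX replicates 1, 2 and 3 to 235, 217 and 238 in ORX+DHT replicates 1, 2 and 3. Controls 1, 2 and 3 stood at 426, 213 and 181 for Msrb1, so control 1 was far above the rest and control overlapped ORX+DHT. Msrb2 and Msrb3 had 0.47 and 0.09 (limma's adjusted p 0.26 and 0.715). Of the 9 genes on the list of MICAL enzymes and reductases, Mical2 left out, 6 were tested, 1 rose and 0 fell. Their median log2 difference was 0.31, and 2.38% of all genes tested were called higher and 1.7% lower. The call of Msrb1 was lost with all 9 libraries in 1 fit (limma's adjusted p 0.265).

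**Figure D4:**
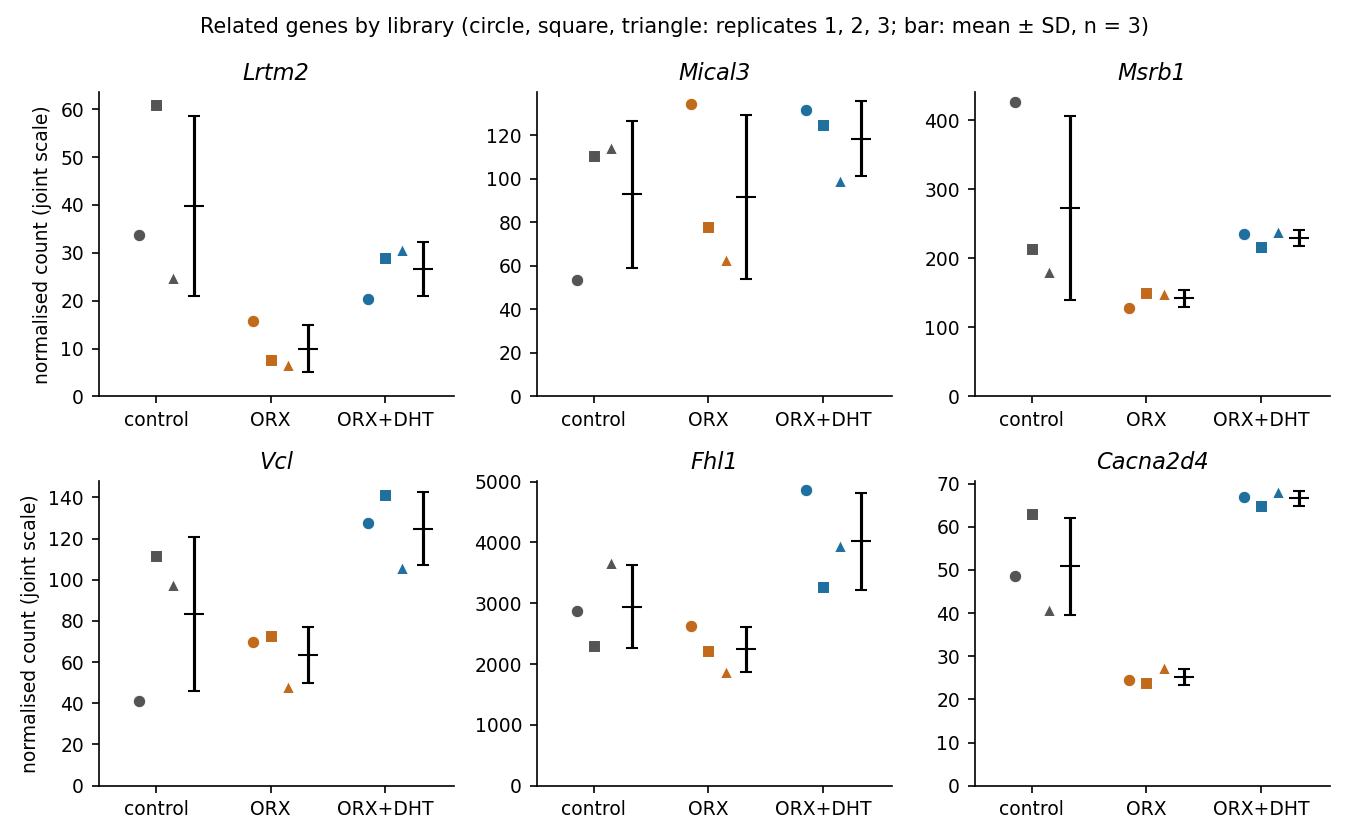
Normalised counts (vertical axes, joint scale) of Lrtm2, Mical3, Msrb1, Vcl, Fhl1 and Cacna2d4 in each library, by group on the horizontal axes; points are libraries and bars the mean ± SD of 3. ORX+DHT points lie above ORX points for the 5 genes other than Mical3, and Cacna2d4 ORX+DHT points also lie above all controls.

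SRF and its coactivators take part in a loop with actin that Mical2 can influence, so their genes and actin-linked targets were read as a list of 25. Of 17 tested in ORX+DHT against ORX, 3 rose and 0 fell, against 2.38% of all genes called higher, with a median log2 difference of 0.03. The 3 were Vcl, for vinculin of adhesion sites (0.98, SE 0.16, limma's adjusted p 0.00105), Fhl1, for a LIM protein of the sarcomere (0.84, SE 0.13, limma's adjusted p 0.000453), and Acta1, for skeletal muscle actin (0.47, SE 0.09, limma's adjusted p 0.00357). Vcl stood at 69.7, 72.5 and 48 in ORX replicates 1, 2 and 3 and at 128, 141 and 106 in ORX+DHT replicates 1, 2 and 3, with controls 1, 2 and 3 at 41.2, 112 and 97.3. Srf itself had a log2 difference of 0.24 (limma's adjusted p 0.36), and the coactivator genes Mrtfa and Mrtfb had -0.09 and -0.45 (limma's adjusted p 0.872 and 0.125). The call of Vcl was lost with all 9 libraries in 1 fit (limma's adjusted p 0.181), that of Fhl1 with robust eBayes (0.145), and that of Acta1 with all 9 libraries (0.42) or without ORX replicate 2 (0.0524). Semaphorins signal to MICAL enzymes through plexins. Of 31 genes for semaphorins, plexins and neuropilins, 19 were tested in ORX+DHT against ORX. Of these 0 were called, against 4.08% of all genes tested, with a median log2 difference of 0.02. Over all 6 lists, 0 genes were called when ORX was set against control, where 5 genes in all, 0.0579%, were called. Without control 1 that total was 51, and 1 list gene was among them, Lrtm2. The count of list genes was also 0 for ORX+DHT set against control, where 3 genes in all, 0.0349%, were called. Without control 1 that total was 66, and 1 list gene was among them, Plxna1, for a semaphorin receptor, at -0.88 (limma's adjusted p 0.0428, and 0.817 with control 1, at -0.38).

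Some marker genes of other cells moved between the same groups. The summed level of 5 fibroblast markers ran from 1352 to 2729 normalised counts for control, from 2876 to 3841 for ORX and from 1700.4 to 2388 for ORX+DHT libraries. In ORX+DHT against ORX, 2 of the 5 fell, Col1a1 and Lum, with log2 differences of -1.18 and -1.79 (limma's adjusted p 2.89e-06 and 4.81e-06). Of all genes tested there, 1.7% were called lower. Col3a1, Dcn and Pdgfra were not called, at -0.46, -0.05 and 0.06 (limma's adjusted p 0.0597, 0.933 and 0.966). The fibroblast sum of each ORX+DHT library lay below that of each ORX library, with a mean at 59.9% of ORX. Of the 5 markers, 4 had a negative and 1 a positive difference, and the median was -0.46. The 5 tendon markers summed to 329 to 429.5, 446 to 733 and 308 to 377 in the same order, and 1 of 3 tested fell, Fmod, with a log2 difference of -1.28 (limma's adjusted p 0.00205, and 0.267 with robust eBayes). Of 6 slow fibre markers, 2 were tested and 1 fell, Myl3, with a log2 difference of -0.75 (limma's adjusted p 0.0166), and the summed level was 111 to 268, 167 to 219 and 82.01 to 128, with Tnni1 at 0 in some library. Myl3 lost its call without ORX replicate 2 (limma's adjusted p 0.126), without ORX+DHT replicate 3 (0.0756) or with all 9 libraries in 1 fit (0.353). The muscle fibre sum spanned 214336 to 254873 for control, 181853 to 189919 for ORX and 188658 to 208733 for ORX+DHT libraries. In ORX+DHT against ORX, 1 of 5 was called higher, Acta1, against 2.38% of all genes tested.

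In ORX+DHT against ORX, 4.08% of all genes tested were called in either direction. Of the markers of endothelium, smooth muscle, macrophages, satellite cells, Schwann cells and the neuromuscular junction, 0 were called there. Their summed levels in ORX and in ORX+DHT libraries were 698 to 855 and 861 to 937 for endothelium, 213 to 255 and 233 to 264 for smooth muscle, and 46.9 to 72.6 and 47.4 to 56.3 for macrophages. They were 35.8 to 49.6 and 39.5 to 53.2 for satellite cells, 203 to 233 and 149.97 to 211 for Schwann cells, and 127 to 142 and 121 to 134 for the junction. Each pair overlapped except endothelium, which was higher in ORX+DHT. The part of any cell type in the fall of Lrtm1, Mdga1 and Mical2 was not tested.

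The 3 genes resembled each other across libraries. Pearson's r of log2 values over the 9 libraries was 0.944 for Lrtm1 with Mical2, 0.904 for Lrtm1 with Mdga1 and 0.86 for Mdga1 with Mical2. By r, Mical2 was at place 6 and Mdga1 at place 25 among the 8630 genes set against Lrtm1. Lrtm1 and Mical2 were at places 10 and 26 for Mdga1, and Lrtm1 and Mdga1 at places 11 and 60 for Mical2. These r values and places are descriptions over libraries that share the groups by which the genes were chosen. Among 8630 other genes, Lrtm1 was most like Nabp1, for a protein that binds single-stranded DNA (r = 0.988), Ppp1r14c, for an inhibitor of protein phosphatase 1 (0.952), and Mlec, for a carbohydrate-binding protein of the endoplasmic reticulum (0.949). Mdga1 was most like Rps6kc1 (0.976), Mlec (0.969) and Kcnj11, for the pore of the ATP-sensitive potassium channel (0.942). Mical2 was most like Klhl33, of the kelch family (0.969), Nabp1 (0.969) and Kcnc4, for a voltage-gated potassium channel (0.966). The means of Klhl33 were 459 ± 31.2 for control, 664 ± 17.1 for ORX and 303 ± 19.6 for ORX+DHT muscle (SD, n = 3), with no overlap between groups and the same order as Mical2. Those of Nabp1 were 38.1 ± 2.92, 43.8 ± 1.22 and 23.1 ± 1.09 in the same order (SD, n = 3). Klhl33 and Nabp1 were picked for their likeness over these libraries, so their order of groups is no separate result.

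The nearest listed genes on the chromosome were read as well. Zfand3, beside Mdga1, had means of 232 ± 28.5 for control, 219.7 ± 30.5 for ORX and 257 ± 13 for ORX+DHT muscle (SD, n = 3). Parva, which starts 14399 bases beyond Mical2, had 38.9 ± 8.32, 45.3 ± 4.06 and 46.2 ± 6.83 (SD, n = 3). Dkk3, for a secreted protein related to Wnt antagonists, lies 66799 bases before Mical2 on the opposite strand and fell in ORX+DHT against ORX. Dkk3 stood at 17.7, 21.3 and 20.7 in ORX replicates 1, 2 and 3 and at 3.04, 6.77 and 7.9 in ORX+DHT replicates 1, 2 and 3, which rest on 3, 7 and 8 reads. Its controls 1, 2 and 3 stood at 9.99, 7.74 and 17.9 and overlapped ORX+DHT and ORX. The log2 difference of Dkk3 was -1.68 (SE 0.35, limma's adjusted p 0.00717), and the call was lost without ORX replicate 2 (limma's adjusted p 0.0529). Lrtm1 had no other listed gene close by: Wnt5a ends 490760 bases before it and Selenok starts 934663 bases after it.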

How the data were processed

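The authors deposited 2 tables of normalised counts, a signal in which reads per gene are divided by 1 factor per library. The first covers control with ORX (14596 genes), the second ORX with ORX+DHT (14675 genes), and both list protein-coding genes by their own biotype column. The submitters' processing notes name Trim Galore 0.6.7, HISAT2 2.2.1, featureCounts 2.0.1, DESeq2 1.36.0 and the build GRCm38, without roles. Per the labels' protocols, libraries were directional and polyA-selected. In every column 100% of values were whole multiples of 1 step (within 1e-06 of the value), so reads were recovered by division, although for control 3 the step lies close to 1. Sham columns were taken as control by replicate number, and 0 columns were left unmapped.

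The comparisons ORX minus control and ORX+DHT minus ORX stayed within 1 table each, and ORX+DHT minus control was fitted on the 14300 shared genes after joint median-of-ratios scaling. limma 3.58.1 (R 4.3.3; eBayes with trend) used log2(value + 1), keeping genes that averaged at least 10 over the 6 libraries, with Benjamini-Hochberg adjustment over all genes tested and calls at an adjusted p under 0.05. This scale understates changes of low genes. The fits were also run on simulated data. Those data held no outlying library, so they do not bear on comparisons that include control 1. Printed levels are on the joint scale.

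The genes, the lists (6 gene lists and 10 marker lists) and the tests were chosen with earlier results of these data known. Named genes were the 3 genes, called list genes, the 3 genes most like each by Pearson's r, close relatives and chromosomal neighbours. The labels call replicates biological without naming animals, so p-values measure the spread between these libraries. Alternatives were pseudocounts of 0.1 and 10, no filter, a minimum mean of 50, TMM and quantile scaling, robust eBayes, a joint fit of the 9 libraries, a block for replicate number, leaving out single libraries, and, added after seeing the data, edgeR 4.0.16 and DESeq2 1.42.0 on recovered reads. Positions come from GENCODE release M21 and RefSeq (both of build GRCm38), in which all 3 genes matched. Protein sequences were not used here. edgeR called 6, 366 and 4 genes in ORX minus control, ORX+DHT minus ORX and ORX+DHT minus control.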

Additional observations from a re-analysis of the deposited data

How the results depend on the processing

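Calls and directions of Lrtm1, Mdga1 and Mical2 in ORX+DHT against ORX were the same in all 17 alternatives each. Their log2 fold changes ran from -2.05 to -1.78, from -1.32 to -1.002 and from -1.29 to -1.16. In ORX against control none was called in any alternative. Over the fits that left out a library, Lrtm1 ran there from 0.098 (without ORX 2) to 0.36 and Mical2 from 0.36 to 0.53, but the sign of Mdga1 turned without control 2 or 3: its log2 fold change ran from -0.36 to 0.034 over the fits that left out a library, with values of 0.034 and 0.0035 in these. Mical3 turned there with quantile normalisation (0.016) and ran from -0.37 to 0.21 over the fits without 1 library, 0.15 without control 2, 0.17 without control 3, 0.064 without ORX 2 and 0.21 without ORX 3.

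The count of genes called in ORX against control was 16 with no filter, 23 with all 9 libraries in 1 fit and 28 with DESeq2, against 5, and ran from 1 to 51 over the fits that left out a library (51 without control 1, 21 without control 3, 1 without ORX 1 or ORX 2, 2 without ORX 3). In ORX+DHT against ORX it was 123 with all 9 libraries and 221 with DESeq2, against 358, and ran from 223, without ORX+DHT replicate 1, up to 350, without ORX replicate 1. In ORX+DHT against control it was 6 with quantile normalisation (4 higher and 2 lower, against 1 and 2), 11 with all 9 libraries and 13 with DESeq2, against 3, and ran from 0, without ORX+DHT replicate 3, where 318 genes had an unadjusted p under 0.05, to 66, without control 1. The cause was not tested. Same-numbered libraries of different groups had deviations with r of -0.165 to 0.151, so the numbers were not taken as pairs. With the replicate block, 571 genes were called in ORX+DHT against ORX and 5 and 3 in the others, with no change of call for Lrtm1, Mdga1 or Mical2. Depth limits the low levels: Mdga1 in ORX+DHT rests on 29 to 46 reads per library, and Dkk3 there on 3 to 8.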
